A study of Homo sapiens with 4 samples.

Results

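The mitochondrial ribosomal protein genes, those whose symbols begin with MRPL or MRPS, were examined in LNCaP cells transfected with the microRNA miR-31. The platform annotation gave 110 of the 47231 array probes to 76 of these genes. Another 3 probes belonged to pseudogenes and were left out, and 2 probes belonged to the antisense RNA genes MRPL20-AS1 and MRPL23-AS1, which encode no ribosomal protein and were set apart. A probe was tested when it was detected, at a detection p under 0.05, on at least 2 of the 4 arrays. That left 100 probes and 75 genes. MRPS34 was the 1 member gene with no tested probe, and MRPL27 had no probe under the rule.

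LNCaP is an androgen-responsive human prostate cancer cell line. Its cells, grown with 10% fetal bovine serum, were transfected for 48 h with 50 nM of miR-31 or of the control microRNA miR-NC. There were 2 Illumina bead arrays per group, and all of them carried the same cell line in the same medium. Whether the repeats were separate cultures is not stated in the labels. The p-values therefore reflect the spread among these 4 arrays alone, which may be technical.

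Mitochondrial ribosomes translate the messenger RNAs of the mitochondrial genome, which encode core proteins of the respiratory chain and ATP synthase. Their proteins are encoded in the nucleus, made on cytosolic ribosomes and imported. The small subunit reads the messenger RNA and the large subunit forms the peptide bonds; some of the proteins have a counterpart in bacterial ribosomes and others are found only in mitochondria. MRPS30 and MRPS18A, in spite of their names, sit in the large subunit and were counted there.

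The transfected RNA is shown because it defines the comparison. The mature microRNA from the MIR31 gene (RefSeq, GRCh38.p14, chr9:21512158-21512178, minus strand) has 21 bases, with the seed, bases 2 to 8, in capitals:
hsa-miR-31-5p: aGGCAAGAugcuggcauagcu
The arrays measured messenger RNAs, so the level of the mature microRNA itself was not checked.

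Detection covered 34.6% and 40.7% of probes on the miR-31 arrays and 38.1% and 37.6% on the miR-NC arrays. Median signals before normalization were 82.5 and 74.6 on the miR-31 arrays and 92.5 and 86.4 on the miR-NC arrays. Member probes were detected on every array at similar counts, 99 and 102 of 110 in miR-31 and 99 and 101 in miR-NC. Of 8 markers of luminal prostate cells with a named probe (KLK3, KLK2, FOLH1, TMPRSS2, HOXB13, KRT8, KRT18 and EPCAM), 7 were detected on all 4 arrays and KRT18 was not. The basal markers KRT5 and KRT14 were not detected on any array. Of the endothelial markers, VWF was detected on all 4 arrays, and PECAM1 and CDH5 were not detected on any. No blood marker (PTPRC, CD3E) and no fibroblast marker (COL1A1, DCN, LUM) was detected on all 4. PTPRC, COL1A1 and DCN were each detected on at least 1 array, and CD3E and LUM were not detected on any.

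One control array stood apart for some members and for other genes. Between the miR-NC arrays, 4 of the 75 genes (5.33%) differed by more than 1 log2 unit, against 2.65% of all 10754 genes tested. Over all genes tested, replicate 1 was the lower miR-NC array by that much in 2.25%. In all 4 members, MRPL23, MRPL12, MRPL4 and MRPS27, replicate 1 was the lower array. They were singled out after their values were seen. Between the miR-31 arrays only MRPL12 differed by more than 1 log2 unit (1.33% of members, against 1.57% of all genes). Replicate 1 was the lower miR-31 array too in these 4 members, by 0.50, 1.64, 0.54 and 0.24 log2 units in the same order. Across the 75 genes, which are not independent replicates, Pearson's r of log2 intensity was 0.978 between the miR-31 arrays and 0.938 between the miR-NC arrays. Over all probes tested r was 0.983 between the miR-31 arrays and 0.979 between the miR-NC arrays. Those 4 members, MRPL23, MRPL12, MRPL4 and MRPS27, are given below with and without miR-NC replicate 1.

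Few genes of the mitochondrial ribosome differed between the groups beyond the spread between arrays. In limma, with adjustment over all probes tested, 2 of 75 genes passed the threshold of 0.05: MRPL38 and MRPL34 fell in miR-31 cells, none rose, and 73 did not pass. The share called was 2.67%, beside 7.66% of all genes tested (2.43% higher and 5.24% lower). Counted by probe, 2 of 100 fell and none rose, beside 6.17% of all probes tested (2.10% higher and 4.07% lower). At an unadjusted p under 0.05 there were 17 members, 9 higher and 8 lower (22.7%, beside 25.3% of all genes). The median log2 change was 0.04, with 42 positive and 33 negative values, and the median of all tested genes was −0.02. Median member intensity was 10.69 and 10.61 log2 units on the miR-31 arrays and 10.44 and 10.65 on the miR-NC arrays. The miR-31 values thus lay next to that of miR-NC replicate 2, and miR-NC replicate 1 was the lowest. Intensities are relative to all labelled RNA of a sample, so fewer cells that express a gene and less RNA per cell cannot be told apart.

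**Figure D1:**
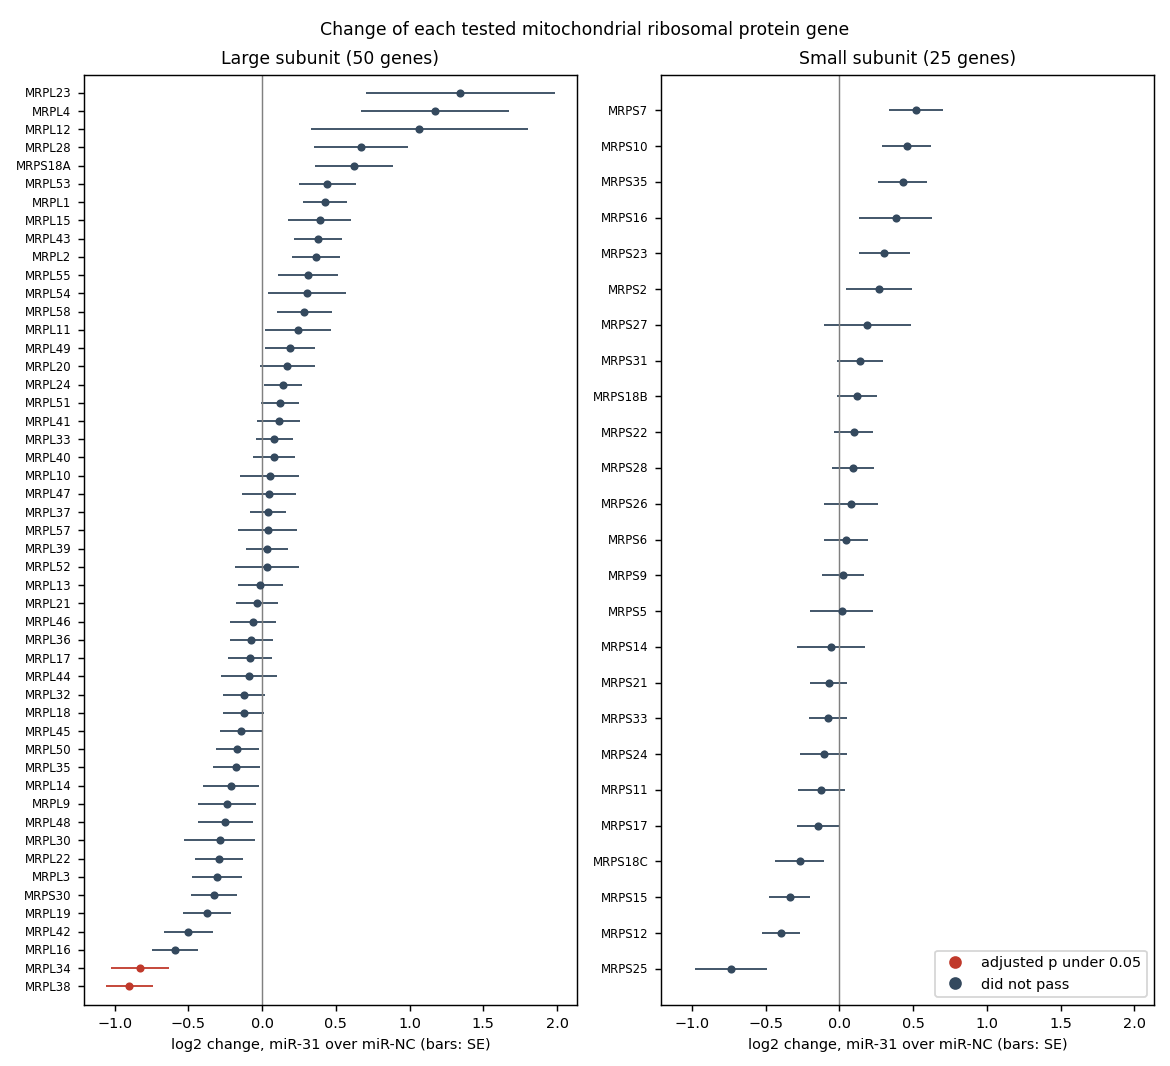
Log2 change (miR-31 over miR-NC, horizontal axis) of each of the 75 tested mitochondrial ribosomal protein genes, ordered by size within the large subunit (50 genes, left) and the small subunit (25 genes, right). Points are limma estimates from 2 arrays per group, bars are standard errors, and red marks the 2 genes past the threshold, MRPL38 and MRPL34.

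Most changes were small enough to be bounded. The standard error of a member's log2 change had a median of 0.16, and the half-width of its 95% interval a median of 0.37 (not adjusted for the number of genes). For 67 of the 75 members this interval lay wholly inside a 2-fold change in either direction (89.3%, beside 70.9% of all genes tested). Over all genes tested the median standard error was 0.22, and the median intensities of 8.21 to 8.28 log2 units lay below those of the members. Whether this brightness accounts for the higher share was not tested. The 8 whose interval reached 2-fold were MRPL38, MRPL34 and MRPS25 on the lower side and MRPS18A, MRPL4, MRPL23, MRPL28 and MRPL12 on the higher side. The groups did not overlap in 32 members (42.7%), 16 higher and 16 lower, beside 55.0% of all genes (24.8% higher and 30.1% lower). The smallest two-sided p that exact permutation allows with 2 arrays per group is 0.333, and the calls depend on limma's pooling of variance over probes.

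MRPL38, a protein found only in mitochondrial ribosomes that sits at the central protuberance of the large subunit, fell 1.87-fold. Its log2 intensity was 9.45 and 9.37 on the miR-31 arrays, against 10.25 and 10.37 on the miR-NC arrays. Both miR-31 arrays lay below both controls by far more than the gap within either group. The log2 change was −0.90 ± 0.16 (SE; limma adjusted p = 0.0127), with a 95% interval of −1.25 to −0.54. It was −0.96 without miR-NC replicate 1 and between −1.02 and −0.84 over all alternatives. Without miR-31 replicate 1 or 2, none of the 10754 genes tested passed, so no call could be kept; MRPL38 then stood at −0.94 and −0.86 (adjusted p = 0.106 and 0.124). The MRPL38 call was also lost with arrays aligned on their medians (adjusted p = 0.772), where 0.586% of all genes were called, and without a variance trend (0.0695), where 2.49% were.

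MRPL34, which has a bacterial counterpart (L34) and is one of the small proteins of the large subunit, fell 1.77-fold. Intensities were 10.22 and 9.81 log2 units in miR-31 cells, against 10.64 and 11.04 in miR-NC cells. These groups did not overlap, but the gap within each, about 0.41 in miR-31 and 0.40 in miR-NC, was nearly as wide as the distance between the nearest arrays. The log2 change was −0.83 ± 0.20 (SE; limma adjusted p = 0.0418), with a 95% interval of −1.27 to −0.38. Without miR-NC replicate 1 it was −1.03 and passed; without miR-NC replicate 2 it was −0.63 and did not (adjusted p = 0.0676). Without miR-31 replicate 1 or 2, where no gene passed, MRPL34 stood at −1.03 and −0.62. It was −0.93 with arrays aligned on their medians, −0.84 with the authors' normalized values and −0.83 with no filter and with no variance trend, and passed in none of these 4 (adjusted p between 0.0546 and 0.800).

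**Figure D2:**
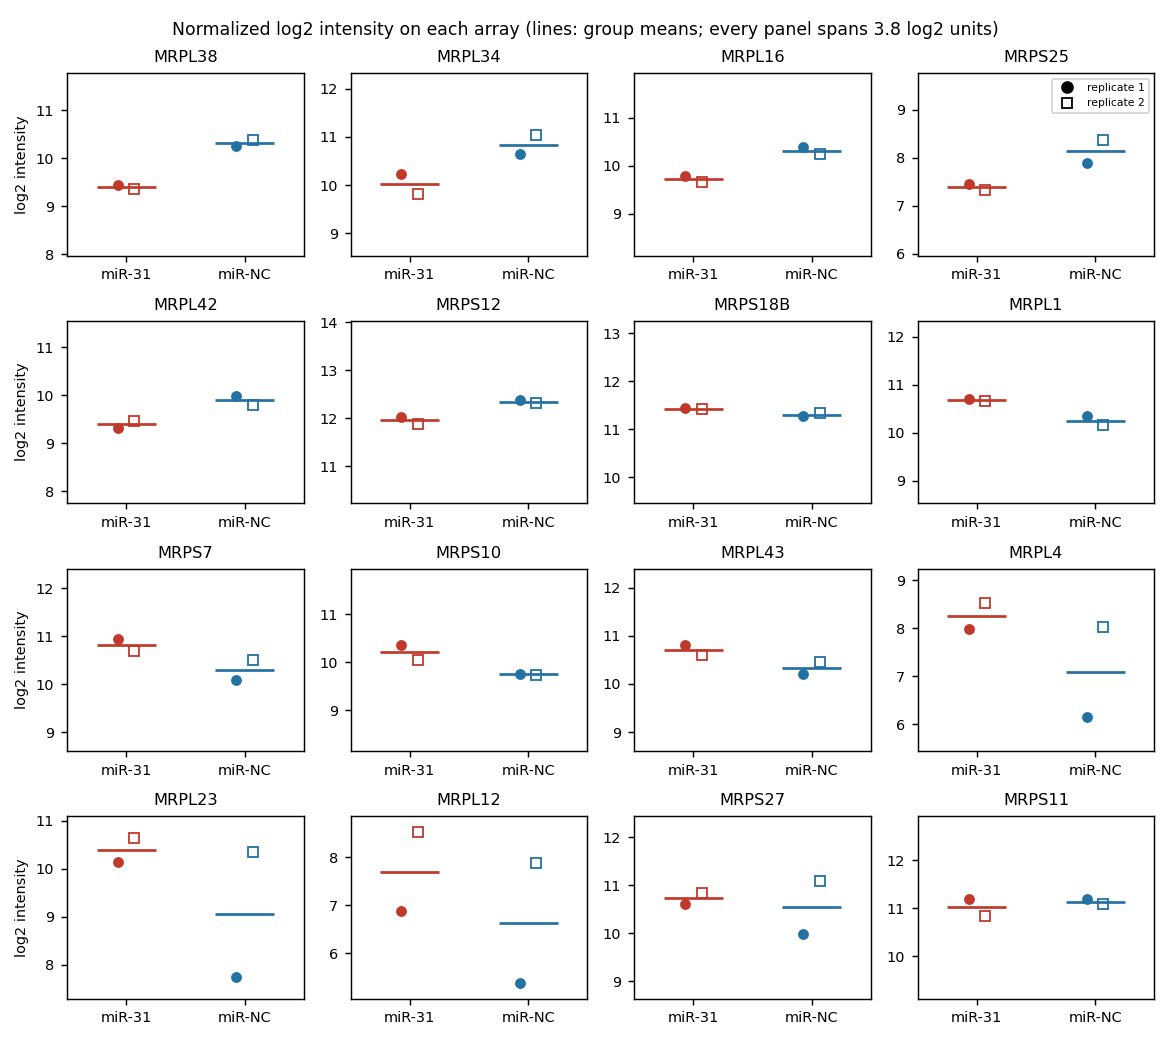
Normalized log2 intensity (vertical axis) of 16 members on each of the 4 arrays, with miR-31 in red, miR-NC in blue, circles for replicate 1, open squares for replicate 2 and lines for group means. MRPL38, MRPL34 and MRPL16 show both miR-31 arrays below both controls, while in MRPL4, MRPL23 and MRPL12 the low point is miR-NC replicate 1.

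The promoters of the 2 genes that fell are shown because any sequence they share can then be read directly. Each window runs from 250 bases before to 50 bases after the gene start (RefSeq, GRCh38.p14), and capitals mark matches, on either strand, to the motifs searched: ETS (CCGGAAG), YY1 (AAGATGG), NRF1, E-box (CACGTG) and E2F (TTTNGCGC). MRPL38 lies at chr17:75904835-75905134 on the minus strand and MRPL34 at chr19:17292323-17292622 on the plus strand.
MRPL38: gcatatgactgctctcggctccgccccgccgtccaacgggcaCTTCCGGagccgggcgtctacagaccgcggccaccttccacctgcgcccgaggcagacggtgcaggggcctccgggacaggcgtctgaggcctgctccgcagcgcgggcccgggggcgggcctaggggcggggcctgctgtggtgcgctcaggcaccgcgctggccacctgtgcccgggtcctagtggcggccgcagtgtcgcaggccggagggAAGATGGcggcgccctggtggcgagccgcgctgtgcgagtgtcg
MRPL34: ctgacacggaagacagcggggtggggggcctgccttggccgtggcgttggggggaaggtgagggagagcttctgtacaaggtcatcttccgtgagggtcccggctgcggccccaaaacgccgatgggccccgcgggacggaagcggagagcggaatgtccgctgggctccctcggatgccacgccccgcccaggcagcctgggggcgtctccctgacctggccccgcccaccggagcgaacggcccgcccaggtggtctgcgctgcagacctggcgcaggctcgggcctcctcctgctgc
MRPL38 had an ETS match 208 bases before the start, on the other strand, and a YY1 match 6 bases after it, counting the start as 0. MRPL34 had no match to any of the 5. The windows were 75.3% and 72.3% G or C.

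Among the other large-subunit proteins with lower intensity, none passed in the main fit. MRPL16, which has a bacterial counterpart (L16) beside the transfer RNA sites, had 9.78 and 9.67 log2 units in miR-31 cells, against 10.38 and 10.25 in miR-NC cells. All arrays of one group lay below the other, at −0.59 ± 0.16 (SE; limma adjusted p = 0.0601). MRPL42, a protein found only in mitochondria, had 9.32 and 9.47 in miR-31 and 9.98 and 9.81 in miR-NC, a value of −0.50 ± 0.17 (adjusted p = 0.117). Its second probe stood at −0.53, so both probes of MRPL42 gave nearly the same value. MRPL19, a counterpart of bacterial L19, and MRPS30, a mitochondria-only protein, stood at −0.38 ± 0.16 and −0.33 ± 0.15 (adjusted p = 0.214 and 0.252). Arrays of the 2 groups did not overlap in any of these 4 genes.

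On the higher side of the large subunit, the smallest p belonged to MRPL1, the protein of the mobile L1 stalk. It had 10.69 and 10.67 log2 units in miR-31 cells, against 10.34 and 10.16 in miR-NC cells, a value of 0.43 ± 0.15 that did not pass (SE; limma adjusted p = 0.131). MRPL53 and MRPL2, the first found only in mitochondria and the second a counterpart of bacterial L2 near the peptidyl transferase centre, stood at 0.44 ± 0.19 and 0.37 ± 0.16 (adjusted p = 0.218 and 0.223). MRPL43, another mitochondria-only protein, was at 0.38 ± 0.16 at its brighter probe (adjusted p = 0.206). Its second probe read 8.98 and 9.15 in miR-31, against 7.15 and 8.55 in miR-NC, a change of 1.21 ± 0.38 (adjusted p = 0.0972). In that second MRPL43 probe miR-NC replicate 1 was again the lowest array, and the change was 0.51 without it.

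In MRPL23, MRPL4 and MRPL12, the members with the highest estimates, the control arrays differed by more than 1 log2 unit. The low control array enters the estimate, and MRPS27 had such a gap with an estimate of only 0.19. MRPL4, which lines the exit tunnel of the large subunit, had 7.99 and 8.53 log2 units in miR-31 cells, against 6.15 and 8.02 in miR-NC cells. Here miR-NC replicate 2 lay inside the miR-31 values. The log2 change of 1.17 ± 0.50 (SE, limma adjusted p = 0.210) was 0.24 without miR-NC replicate 1 and 2.11 without miR-NC replicate 2. The second MRPL4 probe stood at 0.55 ± 0.35 (adjusted p = 0.393), and at 0.0049 without miR-NC replicate 1. MRPS18A, which belongs with MRPS18B and MRPS18C to a trio of homologs of bacterial S18, stood at 0.62 ± 0.27 (adjusted p = 0.207), with 8.46 and 8.62 in miR-31 and 7.54 and 8.29 in miR-NC. The MRPS18A estimate was 0.25 without miR-NC replicate 1 and 1.00 without miR-NC replicate 2.

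The same array was the lowest in MRPL23 and MRPL12, which were chosen after their values were seen. MRPL23, a tunnel-exit protein, had 10.14 and 10.64 log2 units in miR-31 cells, against 7.74 and 10.35 in miR-NC cells, a value of 1.34 ± 0.64 (SE; limma adjusted p = 0.256). MRPL12, of the stalk that binds translation factors, had 6.88 and 8.52 in miR-31 and 5.39 and 7.88 in miR-NC, a value of 1.07 ± 0.73 (adjusted p = 0.441), and was detected on only 1 of the miR-NC arrays. In both genes the groups overlapped, and replicate 1 was the lower array in each group. With the replicate number fitted as a block, MRPL23, MRPL12 and MRPL4 passed as higher, and so did 6.57% of all genes. Without miR-NC replicate 1, MRPL23 stood at 0.04 and MRPL12 at −0.18. MRPS27 stood at 0.19 ± 0.30 with all arrays (adjusted p = 0.773) and at −0.36 without miR-NC replicate 1. Without miR-NC replicate 2, 9 members rose in the test, MRPL12, MRPL15, MRPL23, MRPL28, MRPL4, MRPL54, MRPS18A, MRPS27 and MRPS7. Over all genes tested 5.67% rose in that setting, beside 2.43% with all arrays. Without miR-NC replicate 1 no member rose, and 2.18% of all genes did. Which of the control arrays is nearer to untreated cells was not tested.

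**Figure D3:**
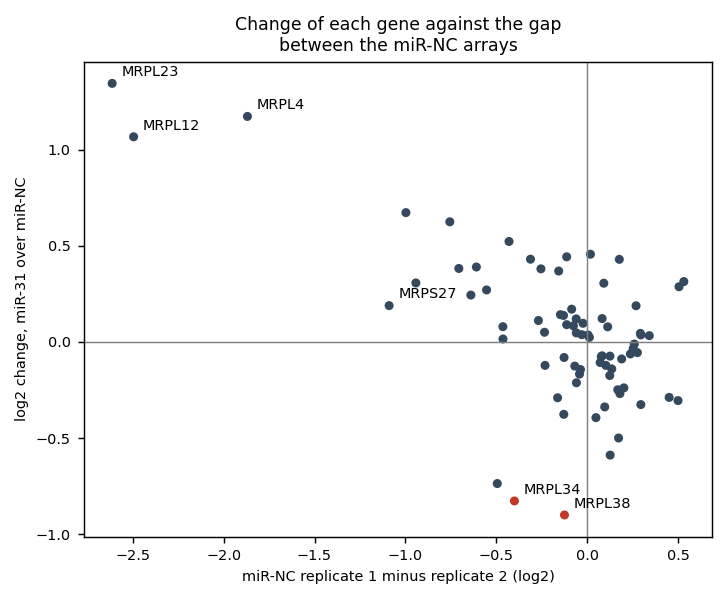
Log2 change (vertical axis, miR-31 over miR-NC) of the 75 genes against the difference between the control arrays (horizontal axis, miR-NC replicate 1 minus replicate 2, log2). The axes share the miR-NC arrays, so a slope is built in. MRPL23, MRPL12 and MRPL4 lie far to the left with the highest changes. MRPL38 and MRPL34 (red) are the lowest points, at −0.12 and −0.40 on the horizontal axis.

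No small-subunit gene passed, with 15 positive and 10 negative values and a median log2 change of 0.04 over 25 genes. The large subunit had 27 positive and 23 negative values and also a median of 0.04. MRPS25, a mitochondria-only protein, had the lowest value, −0.74 ± 0.24 (SE; limma adjusted p = 0.112), from 7.45 and 7.33 log2 units in miR-31 cells and 7.88 and 8.38 in miR-NC cells. Its groups did not overlap, and the estimate was −0.98 without miR-NC replicate 1 and −0.49 without miR-NC replicate 2. MRPS12, a counterpart of bacterial S12 in the decoding centre, had 12.03 and 11.88 in miR-31 cells and 12.37 and 12.32 in miR-NC cells. Its value was −0.39 ± 0.13 (adjusted p = 0.113), and its second probe stood at −0.47. MRPS15 stood at −0.34 ± 0.14, MRPS18C at −0.27 ± 0.17 and MRPS17 at −0.14 ± 0.14, all counterparts of bacterial proteins (adjusted p between 0.189 and 0.620).

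MRPS7 and MRPS10, counterparts of bacterial proteins in the head of the small subunit, had the smallest p-values on the higher side. MRPS7 had 10.93 and 10.70 log2 units in miR-31 cells, against 10.08 and 10.51 in miR-NC cells, a value of 0.52 ± 0.18 (SE; limma adjusted p = 0.133). MRPS10 had 10.36 and 10.05 against 9.76 and 9.74 in miR-NC, or 0.46 ± 0.17 (adjusted p = 0.152). Both genes were higher on each miR-31 array than on either control, and neither passed. MRPS35 (0.43 ± 0.17) and MRPS23 (0.31 ± 0.17), both mitochondria-only, and MRPS16 (0.38 ± 0.25) and MRPS2 (0.27 ± 0.22), with bacterial counterparts, also did not pass (adjusted p between 0.167 and 0.533). Without miR-NC replicate 1, MRPS2 stood at −0.0066 and MRPS16 at 0.029. Without miR-NC replicate 2, MRPS16 stood at 0.73.

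Split by ancestry, the 47 tested members with a bacterial counterpart had a median log2 change of 0.02 and 1 call (MRPL34). The 28 mitochondria-only members had a median of 0.06 and 1 call (MRPL38). The interquartile range of the changes was 0.45 in the first set and 0.29 in the second, beside 0.54 over all genes. The ends of the first set were MRPL34 at −0.83 and MRPL23 at 1.34, and those of the second MRPL38 at −0.90 and MRPL53 at 0.44.

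More than 1 tested probe was available for 23 of the 75 genes. None of their probes passed the threshold, so passing could not show whether probes of a gene agreed. In 11 of the 23 genes the probes differed in sign: MRPL10, MRPL11, MRPL18, MRPL21, MRPL33, MRPL35, MRPL45, MRPL47, MRPS11, MRPS21 and MRPS33. The widest split was in MRPL45, a protein near the tunnel exit, with −0.14 at the brighter probe and 0.83 at the other, a gap of 0.97. The dimmer MRPL45 probe read 9.10 and 9.48 log2 units in miR-31, against 7.77 and 9.16 in miR-NC, so its groups overlapped and the change was 0.13 without miR-NC replicate 1, the lowest array. In the other 10 the gap was 0.52 or less, the largest in MRPL11 of the stalk base, whose 3 probes ran from −0.28 to 0.24. MRPL38 and MRPL34 each had a single tested probe, so no other probe bears on their values.

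Promoter sequence was compared across the family by motif counts. RefSeq windows were found for 68 of the 76 member genes. An ETS match (CCGGAAG) was present in 28 of them (41.2%), beside 14.2% of all 15842 protein-coding promoters in the table. YY1 matches (AAGATGG) were present in 23 (33.8%, beside 6.40%), and 9 genes held both motifs. NRF1 matches were found in 8 members (11.8%, beside 8.57%), E-boxes in 6 (8.82%, beside 8.88%) and E2F matches in 3 (4.41%, beside 2.44%). Matches to different motifs may overlap. Median log2 changes were 0.08 in the 27 tested members with an ETS match and −0.06 in the 40 without, and 0.03 in the 23 with a YY1 match and 0.04 in the 44 without. A match is a run of letters and not a measured binding site.

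Positions of the matches were counted in bins. An ETS match began within 25 bases before the gene start in 19.1% of members (3.72% of all promoters), and a YY1 match within the first 25 bases from the start in 22.1% (2.32%). Of the 24 YY1 matches in members, 20 read along the gene strand. The windows below show this for the 8 named members with such a match, each 25 bases on the gene strand with the motif in capitals. The letters ATG are part of the motif searched, so every window holds them.
MRPL11 (chr11:66438809-66438833, minus strand): ctctggcccAAGATGGtggcgccca
MRPL38 (chr17:75904863-75904887, minus strand): gccggagggAAGATGGcggcgccct
MRPL42 (chr12:93467513-93467537, plus strand): gattgaaacAAGATGGcgggttcgt
MRPL45 (chr17:38297172-38297196, plus strand): tgcgggaacAAGATGGcagccccca
MRPS10 (chr6:42217837-42217861, minus strand): gggaccggcAAGATGGcggcgcgga
MRPS18A (chr6:43687767-43687791, minus strand): aggtttttgAAGATGGcggccctca
MRPS30 (chr5:44808951-44808975, plus strand): tcgcgggcaAAGATGGcggcggcca
MRPS7 (chr17:75261889-75261913, plus strand): tggccagccAAGATGGctgcccccg
The 8 matches began between 6 and 24 bases after the start. Of these genes only MRPL38 passed the test. MRPL42 stood at −0.50, MRPS10 at 0.46 and MRPS7 at 0.52. Named members were taken by smallest p in each direction or by probes that differed in sign. Values on both sides of 0 therefore follow from that choice. A match in those first 25 bases was present in 15 members, and those not shown ran from −0.17 (MRPL50) to 0.19 (MRPS27).

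**Figure D4:**
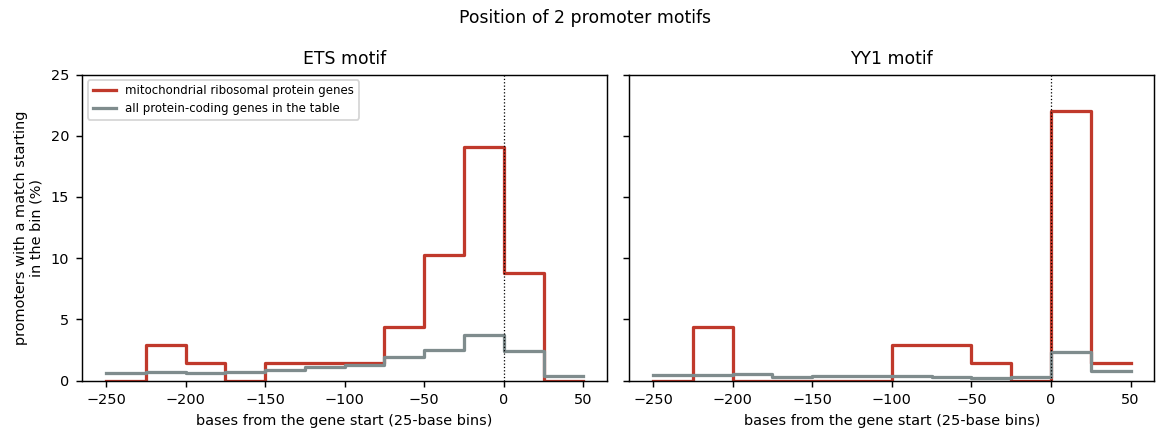
Share of promoters (vertical axis, %) with a match to the ETS (left) or YY1 (right) motif that begins in each 25-base bin, against distance from the gene start in bases (horizontal axis). Red lines are the 68 mitochondrial ribosomal protein promoters and grey lines all 15842 protein-coding promoters; the ETS share peaks at 19.1% just before the start and the YY1 share at 22.1% just after it.

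Many member genes begin back to back with another gene. Of 68 members, 17 (25%) had a protein-coding gene on the opposite strand starting within 1000 bases upstream, beside 10.3% of all genes in the table. One pair joins members of both subunits: MRPL46 and MRPS11 start 320 bases apart and stood at −0.06 and −0.12. In 15 pairs both genes were tested, and 6 of them had changes of the same sign. MRPS12 shares its start region with SARS2, the mitochondrial seryl-tRNA synthetase, and the 2 stood at −0.39 and 0.14. Only 1 partner passed: NCAPD2, a condensin subunit 840 bases from MRPL51, fell by 1.03 on the log2 scale (± 0.20, SE; limma adjusted p = 0.0199), while MRPL51 stood at 0.12 ± 0.13 (adjusted p = 0.638). SKA3, a kinetochore gene 106 bases from MRPL57, stood at −1.48 ± 0.38 (adjusted p = 0.0547), beside 0.04 ± 0.20 for MRPL57.

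Genes that act with the mitochondrial ribosome were read from the same fit. TFAM, which packages mitochondrial DNA and starts its transcription, fell 1.67-fold in miR-31 cells and was the 1 of 21 tested transcription and RNA factors to pass. It had 9.86 and 9.98 log2 units in miR-31 cells, against 10.66 and 10.67 in miR-NC cells, a change of −0.74 ± 0.15 (SE; limma adjusted p = 0.0219). Both miR-31 arrays lay well below both controls, and leaving out any 1 array kept the TFAM estimate between −0.80 and −0.68. PPRC1, a coactivator of nuclear genes for mitochondria, and POLRMT, the mitochondrial RNA polymerase, missed the threshold at −0.54 ± 0.17 and 0.71 ± 0.29 (adjusted p = 0.108 and 0.197). The median of that list was −0.15, with 8 positive and 13 negative values.

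Of 23 tested assembly factors of the mitochondrial ribosome, 1 fell and none rose. NOA1, a GTPase of ribosome assembly, had 10.37 and 10.26 log2 units in miR-31 cells, against 10.89 and 10.90 in miR-NC cells, or −0.58 ± 0.14 (SE; limma adjusted p = 0.0480). It fell 1.49-fold, and its estimate stayed between −0.63 and −0.53 when any 1 array was left out. No gene of this list passed on the lower side in 9 of 14 alternatives, of which the 2 that leave out a miR-31 array called no gene at all. YBEY, an RNA-processing endonuclease, and RPUSD4, a pseudouridine synthase, stood at 0.63 ± 0.19 and −0.39 ± 0.14 (adjusted p = 0.0917 and 0.141). The list median was −0.12.

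Neither translation factors nor mitochondrial aminoacyl-tRNA synthetases held a call. The 19 translation factors had a median of −0.00. Their smallest p-values belonged to the initiation factor MTIF3 (0.51 ± 0.17), the rescue factor MTRFR (0.46 ± 0.17) and the peptide deformylase PDF (0.80 ± 0.31), with limma adjusted p between 0.108 and 0.170. Of the 15 synthetases, which charge mitochondrial transfer RNAs, 11 had negative values and the median was −0.15. LARS2, for leucine, had 8.56 and 8.25 log2 units in miR-31, against 9.30 and 8.97 in miR-NC, or −0.73 ± 0.21 (adjusted p = 0.0748). HARS2 and VARS2, for histidine and valine, stood at −0.44 ± 0.15 and −0.52 ± 0.21 (adjusted p = 0.117 and 0.187). The 3 tested ribosome proteins with other names, DAP3, CHCHD1 and GADD45GIP1, stood at 0.13, −0.05 and −0.00.

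**Figure D5:**
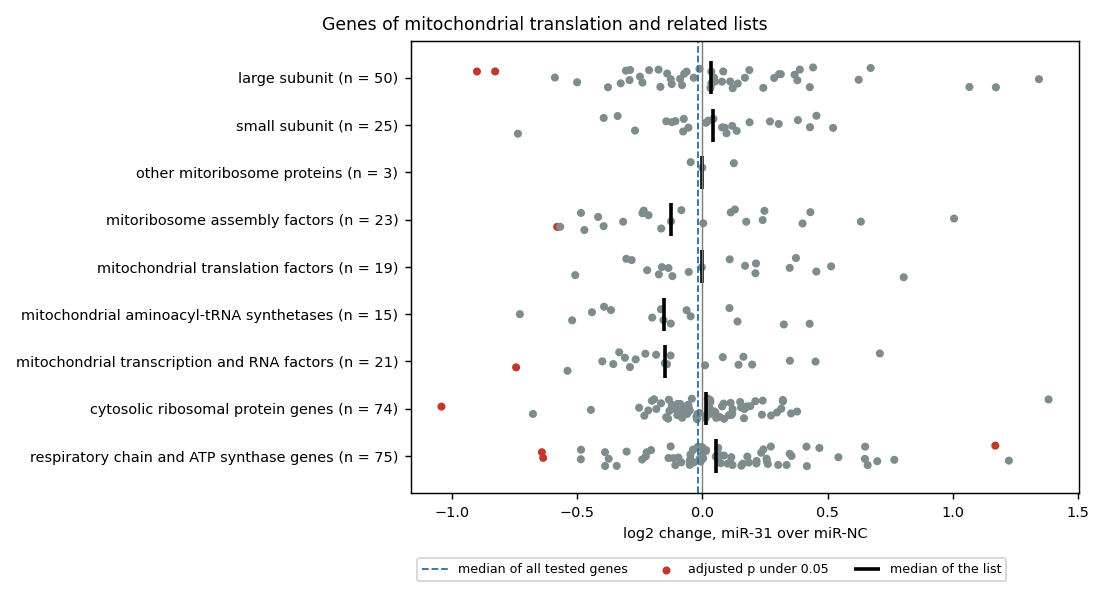
Log2 change (horizontal axis, miR-31 over miR-NC) of each tested gene in the subunits of the mitochondrial ribosome and in 7 related lists, one row per list with its number of genes. Black lines are list medians, the dashed line is the median of all tested genes, and red points passed the threshold; every list median lies between −0.15 and 0.05.

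The most similar gene groups outside mitochondrial translation gave counts of the same order, with no test of a difference between groups made. Of 74 tested genes chosen by symbol for proteins of the cytosolic ribosome and their close paralogs, 1 fell and none rose (median 0.02). The choice by symbol also took in RPS6KL1, a kinase-like gene, at 0.17. The gene that fell was RPL36A, at −1.04 ± 0.20 (SE, limma adjusted p = 0.0167). Of 75 respiratory chain and ATP synthase genes, 1 rose and 2 fell (median 0.05). NDUFA11 of complex I stood at 1.17 ± 0.27 (adjusted p = 0.0360) and at 0.70 without miR-NC replicate 1, ATP5MC1 of ATP synthase at −0.64 ± 0.15 (0.0434) and NDUFA9 of complex I at −0.64 ± 0.16 (0.0485). Changes smaller than 0.5 log2 units in size made up 86.7% of the mitochondrial ribosomal genes, 95.9% of the cytosolic set, 86.7% of the respiratory set and 74.9% of all genes.

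The antisense probes that were set apart held no call. MRPL20-AS1 had 11.43 and 11.32 log2 units in miR-31 cells, against 11.59 and 11.23 in miR-NC cells (log2 change −0.04 ± 0.16, SE; limma adjusted p = 0.928). MRPL20 itself stood at 0.17 ± 0.19 at its brighter probe and at 0.78 ± 0.32 at the other (adjusted p = 0.660 and 0.193). In that other MRPL20 probe miR-NC replicate 1 was the lowest array, and the change was 0.18 without it. MRPL23-AS1 was not detected on any array.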

How the data were processed

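RNA from 2 miR-31 and 2 miR-NC samples of LNCaP cells was labelled as biotin cRNA and read on Illumina bead arrays. The main values are the deposited non-normalized linear intensity of each probe, exported with BeadStudio per the submitters' processing notes; the background setting used there is not given in the sources used here. Next to each intensity the authors deposited a detection score, called a p-value in the file header, which ran as 1 minus p and was used in that way. The authors further deposited a table of normalized intensity whose method is not given in the sources used here. It served as an alternative, floored at 16 before log2 was taken.

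The deposited intensity was corrected and quantile-normalized with neqc (offset 16) and taken to log2 in R 4.3.3 with limma 3.58.1. Probes detected on at least 2 of 4 arrays entered lmFit and eBayes with a variance trend (2 residual and 7.19 prior degrees of freedom), with Benjamini-Hochberg adjustment over all 18354 of them and a threshold of 0.05. The number of arrays limits the precision. For genes with several tested probes the brightest on average stood for the gene, and probes were named only from the platform annotation.

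Members and gene lists were chosen with earlier results of these data known. Named genes were those past the threshold, the 6 with the smallest p in each direction in each subunit, those whose probes differed in sign, and up to 3 per other list; the YY1 windows shown were chosen after the motif counts were seen. Alternatives changed the background correction, offset, normalization, filter, variance trend, threshold, handling of probes, replicate block and arrays included.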

Additional observations from a re-analysis of the deposited data

How the results depend on the processing

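With arrays aligned on their medians or with no variance trend, 0 members fell, and with the authors' normalized values or no filter 1 did (MRPL38); these counts were the same for probes and for the large subunit. Leaving out 1 array gave 0 to 2 lower and 0 to 9 higher genes (0 to 14 probes; 0 to 7 in the large and 0 to 2 in the small subunit), with the higher calls all without miR-NC replicate 2. When either miR-31 array was dropped no gene on the array passed, so those counts of 0 do not concern the members. At an adjusted p under 0.1, 1 probe was higher. Counting a gene by any tested probe, an alternative chosen after seeing the data, changed neither count. The labels do not say whether the replicate numbers pair the arrays, so the main fit used no block. Deviations of same-numbered arrays correlated at 0.22. With the replicate block, 4 members were lower (MRPL38, MRPL34, MRPL16 and MRPS25, the last in the small subunit, where the count was 1) and 3 higher (MRPL12, MRPL23 and MRPL4, all in the large subunit), and 6 probes were higher and 4 lower. Over all genes the block called 6.57% higher and 9.18% lower, beside 2.43% and 5.24% without it. The block also gave 2 higher assembly factors, 1 lower synthetase, 1 higher transcription or RNA factor, 1 higher and 2 lower cytosolic ribosomal genes and 7 higher respiratory chain genes. Aligned medians put list medians at −0.058 (large subunit), −0.037 (small subunit), −0.070 (other ribosome proteins), −0.11 (translation factors) and −0.25 (transcription and RNA factors), and the other-protein median was 0.063 with no filter. Aligned medians left 0 lower calls among assembly, transcription and RNA, cytosolic and respiratory genes, 0 higher respiratory calls and 1 higher cytosolic call. With no variance trend these 4 lists held 0 lower calls and the respiratory list 0 higher. Assembly factors held 0 lower calls with no background correction, the authors' values or no filter; respiratory genes held 1, 0 and 0 lower, and 0 higher with the authors' values. Averaging a gene's probes gave 3 lower members, MRPL38, MRPL34 and MRPL16, the last at −0.59 (limma adjusted p = 0.0365). Over all genes that setting called 3.92% higher and 6.82% lower. It also gave 1 lower synthetase, 2 lower cytosolic genes and 4 higher respiratory genes. Leaving out 1 array gave 0 to 2 higher and 0 lower assembly factors, 0 to 2 higher and 0 to 1 lower translation factors, 0 to 1 lower synthetases, 0 to 1 higher and 0 to 1 lower transcription and RNA factors, 0 to 5 higher and 0 to 2 lower cytosolic genes and 0 to 8 higher and 0 to 4 lower respiratory genes, with medians of −0.047 to 0.079 for the other ribosome proteins and −0.010 to 0.15 for respiratory genes. Single genes near 0 changed sign. MRPL10 was −0.061 with aligned medians and −0.068 with probes averaged, and ran from −0.12 to 0.22 without 1 array. MRPL47 was −0.054 and −0.21 in the same settings, and ran from −0.030 to 0.12. With probes averaged, MRPS11 was 0.045, MRPL11 −0.052, MRPL21 0.10, MRPL33 −0.027, MRPL45 0.34, MRPS21 0.15 and MRPS33 0.073. Without 1 array MRPS2 ran from −0.0066 to 0.55, MRPS11 from −0.30 to 0.055, MRPL11 from −0.076 to 0.56 and MRPL21 from −0.16 to 0.093. The causes were not tested. With 2 arrays per group, precision was lowest for members whose arrays differed most within a group, with standard errors of 0.73 for MRPL12 and 0.64 for MRPL23.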
